A study of Mus musculus with 16 samples.

Results

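Hyaluronan (HA) is read by the cell through a small set of receptors and is organised outside the cell by proteins that bind the chain. The genes followed here were 10 of the 54532 in the deposited table, taken as the rows named *Cd44*, *Lyve1*, *Stab1*, *Stab2*, *Tlr4*, *Hmmr*, *Vcan*, *Ncan*, *Hapln1* and *Tnfaip6*, and each was found. They were measured by RNA sequencing of inguinal white adipose tissue (iWAT) from male mice that entered the experiments at 8 to 10 weeks of age. Each of 4 groups had 4 libraries. Has2_TG mice carried Apn-rtTA, a doxycycline-dependent activator under the adiponectin promoter, together with TRE-Has2, and thus made more of the HA synthase HAS2 in adipocytes. PH20_TG mice carried Apn-rtTA together with TRE-PH20, which drives *Spam1*, the gene of the hyaluronidase PH20. Has2_WT and PH20_WT were the littermates of each line and carried Apn-rtTA without a TRE transgene. All mice, controls included, ate chow with 200 mg/kg doxycycline for 5 days, so no group was free of the drug or of the activator. Each transgene was driven in adipocytes, whereas the libraries were made from whole tissue.

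HA is a long unsulfated sugar chain of the extracellular matrix. CD44 is the main cell surface receptor for HA on leukocytes and stromal cells. LYVE1 is its relative on lymphatic endothelium and on a class of tissue macrophages. Stabilin-1 and stabilin-2, encoded by *Stab1* and *Stab2*, are scavenger receptors of macrophages and of sinusoidal endothelium, and stabilin-2 clears HA from blood and lymph. TLR4 is a pattern recognition receptor that has been linked to signals from HA fragments, and *Hmmr* encodes RHAMM, which binds HA and also associates with the mitotic spindle. Versican (*Vcan*) and neurocan (*Ncan*) are hyalectans, large proteoglycans that attach to HA by their N-terminal domain. HAPLN1 is a link protein that locks hyalectans onto the chain. TSG-6, encoded by *Tnfaip6*, is a secreted link-module protein that transfers the heavy chains of inter-alpha-inhibitor to HA.

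The stretches just upstream of *Tnfaip6* and *Vcan* are shown because these genes had the largest increases in Has2_TG, a choice made after their values were seen. Both are RefSeq sequences of build GRCm38.p6, written 5′ to 3′ on the strand of the gene, and hold the part of the RefSeq promoter window that lies before the gene start given in the deposited table. Capitals mark matches to the letters searched on both strands. That of *Tnfaip6* covers 146 bases at chr2:52037863-52038008 on the plus strand and that of *Vcan* covers 250 bases at chr13:89742513-89742762 on the minus strand.
Tnfaip6: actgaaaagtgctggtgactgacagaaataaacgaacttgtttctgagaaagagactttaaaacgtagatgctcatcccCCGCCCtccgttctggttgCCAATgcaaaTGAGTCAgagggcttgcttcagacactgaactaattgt
Vcan: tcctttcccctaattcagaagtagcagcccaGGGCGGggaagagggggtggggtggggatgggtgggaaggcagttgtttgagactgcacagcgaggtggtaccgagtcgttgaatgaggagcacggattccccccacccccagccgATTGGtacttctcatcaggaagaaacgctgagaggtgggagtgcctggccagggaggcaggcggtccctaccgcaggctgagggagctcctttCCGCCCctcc

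The letters searched were those of the TATA box (TATAAA), AP-1 (TGANTCA), CRE (TGACGTCA), C/EBP (TTGCNNAA), TEAD (GGAATG), the SP1 GC box (GGGCGG) and the CCAAT box (CCAAT), and the marked matches did not overlap each other. In *Tnfaip6*, the AP-1 letters began 38 bases before the gene start, the CCAAT box 48 bases before it and a GC box, on the other strand, 67 bases before it. In *Vcan*, GC boxes began 222 bases and, on the other strand, 13 bases before the start, and a CCAAT box lay on the other strand 106 bases before it. Over windows of 146 bases in 32851 RefSeq promoters, the AP-1 letters occurred in 3.86%, the GC box in 16.1% and the CCAAT box in 19.4%. Over windows of 250 bases the shares were 32.7% for the GC box and 33.8% for the CCAAT box. The AP-1 match in *Tnfaip6* was therefore the least common of the marked letters, and a match describes the sequence without showing a bound site. An entry was found for 8 of the 10 genes.

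The reads on genes recovered per library ranged from 14421692 to 26751729. The transgenes were checked first. *Has2* was at 1.86 to 3.24 FPKM in the 4 Has2_TG libraries and at 0.417 to 0.806 FPKM in Has2_WT, with no overlap. *Spam1* had 6, 12 and 5 reads in the libraries labelled PH20_TG2, PH20_TG3 and PH20_TG4, 0 reads in the one labelled PH20_TG1, and 0 reads in all libraries of the other groups, where a count of 0 allows up to 3 reads. The library labelled PH20_TG1 was thus not shown to express its transgene, and the PH20 differences of the 10 genes are given with and without it. *Has2* itself was uneven in the PH20_TG libraries, at 3.32, 0.380, 0.0990 and 3.26 FPKM in the libraries labelled PH20_TG1 to PH20_TG4. The adipocyte markers, 8 genes that include *Adipoq* and *Plin1*, summed to between 2870 and 7260 FPKM in every library, with none at 0 throughout a group. Summed B cell markers reached 275 and 234 FPKM in Has2_WT1 and Has2_WT2 and 295 and 112 FPKM in PH20_WT1 and PH20_WT3, against at most 5.70 FPKM in the other libraries. All values describe whole tissue, in which fewer cells of a type and less RNA per cell cannot be told apart. The labels do not say whether each library came from 1 mouse, so p-values measure the spread between these libraries.

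Averaged over the 16 libraries, *Lyve1* (12.6 ± 6.49 FPKM, SD) and *Stab1* (10.9 ± 4.46 FPKM) were the most abundant of the 10 genes per transcript length. *Cd44* (3.65 ± 2.87 FPKM) and *Tlr4* (3.65 ± 1.41 FPKM) came next, then *Tnfaip6* (2.18 ± 1.57 FPKM), *Vcan* (1.96 ± 1.42 FPKM) and *Ncan* (1.44 ± 1.13 FPKM). *Hmmr* (0.219 ± 0.303 FPKM), *Stab2* (0.177 ± 0.252 FPKM) and *Hapln1* (0.0284 ± 0.0394 FPKM) were near the detection limit. In this order only the steps from *Stab1* to *Cd44* and from *Ncan* to *Hmmr* exceeded the SD of both neighbours. Mean reads reached the minimum of 50 for 7 of the genes, which entered the tests across all genes. *Hmmr*, *Stab2* and *Hapln1* did not, and were compared by exact permutation of the libraries only.

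**Figure D1:**
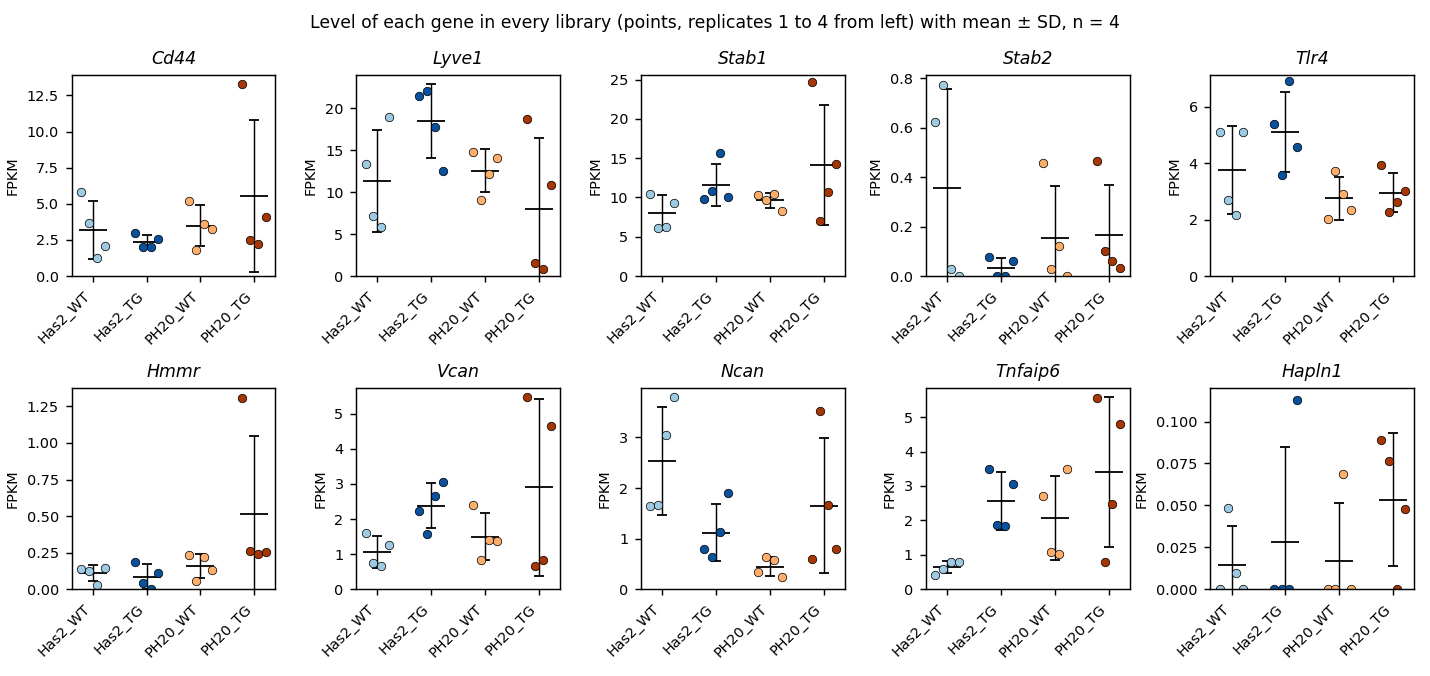
FPKM of each of the 10 genes (vertical axis, from 0) in the 4 groups (horizontal axis), with a point for each library and a bar for the mean ± SD (n = 4). *Tnfaip6* lies between 0.429 and 0.796 FPKM in Has2_WT and between 1.84 and 3.50 FPKM in Has2_TG, whereas the PH20_TG points of *Lyve1*, *Vcan* and *Tnfaip6* scatter over most of each panel.

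The first comparison asked how the HA-binding genes stood when adipocytes made more HA synthase. In Has2_TG, *Tnfaip6*, *Vcan*, *Lyve1* and *Stab1* rose and *Ncan* fell, while *Cd44* and *Tlr4* did not pass the test. A gene is called here, and said to rise or fall, at an unadjusted p under 0.05 in limma, the threshold of the study's methods, and the p-values printed are those adjusted over all genes tested. Among the 7 genes tested, 4 therefore rose, against 6.25% of all 12606 genes tested, and 1 fell, against 3.75%. The median log2 difference of the 7 genes was 0.54, beside -0.03 over all genes. With Benjamini-Hochberg adjustment over all genes in limma, none of the 7 passed 0.05, which 0.103% of all genes did, and the smallest adjusted p was 0.0716, that of *Tnfaip6*. *Tnfaip6* was also the 1 tested gene whose Has2_TG values all lay above the Has2_WT values, as did 4.08% of all genes, and no gene had them all below, as did 2.11%.

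*Tnfaip6* (chromosome 2, 52038009 to 52056686, plus strand), whose product TSG-6 remodels HA-rich matrix, showed the largest change. It was at 0.429, 0.604, 0.792 and 0.796 FPKM in Has2_WT1 to Has2_WT4. In Has2_TG1 to Has2_TG4 it was at 3.50, 1.87, 1.84 and 3.05 FPKM. The lowest Has2_TG library exceeded the highest Has2_WT library more than the Has2_WT libraries differed among themselves. Its log2 difference was 1.80 ± 0.32 (SE), a 3.47-fold rise with a 95% interval of 2.11 to 5.73 (limma, adjusted p = 0.0716). The call was kept in the 7 fits without 1 library that tested it and in the 12 other alternatives (adjusted p from 0.0481 to 0.789). The gene had a mean of only 57.4 reads and fell under the read minimum without Has2_TG1, so that fit gave no value.

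*Vcan* (chromosome 13, 89655312 to 89742509, minus strand), the main hyalectan of loose connective tissue, was at 1.61, 0.742, 0.656 and 1.27 FPKM in Has2_WT1 to Has2_WT4. It was at 2.23, 1.58, 2.66 and 3.06 FPKM in Has2_TG1 to Has2_TG4. The ranges met only where Has2_TG2 lay just under Has2_WT1. The log2 difference was 1.13 ± 0.34 (SE), or 2.19-fold with a 95% interval of 1.28 to 3.72 (limma, adjusted p = 0.264). It was called in each of the 8 fits that left out 1 library but not in 1 fit of all 16 libraries, which shares the spread with the PH20 study (adjusted p = 0.474). *Gm4117*, an antisense gene that overlaps *Vcan*, held 622 reads over all libraries, and whether the authors counted by strand is not given in the sources used here.

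*Ncan* (chromosome 8, 70093085 to 70120873, minus strand), known best from the matrix of the brain, went the other way. Its levels were 1.65, 1.66, 3.04 and 3.80 FPKM in Has2_WT1 to Has2_WT4 and 0.799, 0.636, 1.14 and 1.91 FPKM in Has2_TG1 to Has2_TG4. Has2_TG4 was above the lower pair of Has2_WT libraries and the other Has2_TG libraries were below all controls. It differed by a log2 value of -1.13 ± 0.40 (SE), with a 95% interval from -2.02 to -0.23 (limma, adjusted p = 0.364). The call was lost without Has2_WT3 (log2 difference -1.01), without Has2_WT4 (-0.91) and without Has2_TG2 (-0.92).

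Of the receptors, *Lyve1* (chromosome 7, 110850607 to 110863239, minus strand) was at 13.3, 7.11, 5.81 and 19.0 FPKM in Has2_WT1 to Has2_WT4. In Has2_TG1 to Has2_TG4 it was at 21.4, 22.1, 17.8 and 12.5 FPKM, so Has2_WT4 exceeded Has2_TG3 and Has2_TG4. The log2 difference of 0.82 ± 0.36 (SE) just passed (limma, adjusted p = 0.489). *Stab1* (chromosome 14, 31139013 to 31168641, minus strand) was at 10.5, 6.09, 6.26 and 9.34 FPKM in Has2_WT1 to Has2_WT4 and at 9.86, 10.8, 15.6 and 10.1 FPKM in Has2_TG1 to Has2_TG4. Has2_TG1 and Has2_TG4 sat near the top of the control range, Has2_TG2 just above it and Has2_TG3 well above it. Its log2 difference was 0.54 ± 0.23 (SE; limma, adjusted p = 0.486), and an antisense neighbour, *Nt5dc2*, held 1793 reads over all libraries. Leaving out 1 library ended the call of *Lyve1* in 5 of 8 fits (without Has2_WT2, Has2_WT3, Has2_TG1, Has2_TG2 or Has2_TG3, with log2 differences from 0.56 to 0.83). The call of *Stab1* also ended in 5 of 8 fits (without Has2_WT2, Has2_WT3, Has2_TG2, Has2_TG3 or Has2_TG4, from 0.39 to 0.59). Both calls also ended without the B cell-rich Has2_WT1 and Has2_WT2 (0.77 for *Lyve1* and 0.57 for *Stab1*).

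*Cd44* (chromosome 2, 102811141 to 102901665, minus strand) was at 5.84, 3.65, 1.23 and 2.08 FPKM in Has2_WT1 to Has2_WT4 and at 2.98, 2.04, 1.99 and 2.54 FPKM in Has2_TG1 to Has2_TG4. The controls with the highest *Cd44* were Has2_WT1 and Has2_WT2, the B cell-rich libraries, and the Has2_TG libraries lay between the control values. The log2 difference was -0.21 with a 95% interval from -1.15 to 0.74 (limma, adjusted p = 0.916), and without those controls it was 0.53 (adjusted p = 0.657). *Tlr4* (chromosome 4, 66827584 to 66930284, plus strand) was at 5.10, 2.69, 2.17 and 5.09 FPKM in Has2_WT1 to Has2_WT4 and at 5.38, 3.58, 6.90 and 4.56 FPKM in Has2_TG1 to Has2_TG4. Its log2 difference of 0.49 had a 95% interval from -0.24 to 1.21 (limma, adjusted p = 0.680), so no rise was shown, and no lack of one either.

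Most markers of adipocyte progenitors and of resident macrophages moved with the genes that rose, whereas lymphocyte markers went the other way. Of 9 adipocyte progenitor markers, 8 rose in Has2_TG, among them *Dpp4* (log2 difference 1.77) and *Pi16* (1.98). *Col15a1* was not called, with a mean of 59.0 ± 19.5 FPKM (SD, n = 4) in Has2_WT and 43.8 ± 18.3 FPKM in Has2_TG. The list summed to 246 to 464 FPKM in Has2_WT and to 613 to 910 FPKM in Has2_TG, with no marker at 0 throughout a group. Of 10 resident macrophage markers, 7 rose, among them *C1qb* (1.00) and *Cd163* (0.92), and the sum went from 185 to 379 FPKM up to 364 to 572 FPKM. *Timd4* was not called, with a mean of 9.11 ± 6.36 FPKM (SD, n = 4) in Has2_WT and 3.95 ± 1.27 FPKM in Has2_TG. None of the 8 adipocyte markers passed the test. Of 7 B cell markers 2 fell and of 8 T cell markers 2 fell, none rose, and the median log2 differences were -2.88 and -2.38. Of 4 tested lymph node stroma markers 1 fell (median -3.10). Within the Has2 study the sums of these lists were high only in Has2_WT1 and Has2_WT2. With the mean log2(FPKM + 0.1) of the progenitor markers, here their level, as a covariate, an alternative added after the data were seen, the log2 difference of *Vcan* was -0.05 (adjusted p = 0.997), that of *Lyve1* -0.19 (adjusted p = 0.988) and that of *Stab1* -0.28 (adjusted p = 0.949), and none was called. *Tnfaip6* at 1.80 (adjusted p = 0.789) and *Ncan* at -2.38 (adjusted p = 0.724) were still called. With the macrophage level as the covariate, *Vcan* was at 0.81, *Lyve1* at 0.02, *Stab1* at 0.16 and *Ncan* at -0.87 (adjusted p from 0.688 to 0.987), and none of these was called, while *Tnfaip6* at 2.05 (adjusted p = 0.483) was. The progenitor sums of both groups did not overlap, so the fit with this covariate extrapolates and cannot separate progenitor level from genotype. The macrophage sums overlapped only slightly. The part of progenitors and macrophages in the differences was not tested. Of the lymphatic endothelial markers, the defining *Prox1* averaged 0.155 ± 0.12 FPKM (SD, n = 4) in Has2_WT and 0.0225 ± 0.0323 FPKM in Has2_TG. *Mmrn1* averaged 0.277 ± 0.343 FPKM in Has2_WT and was at 0 throughout Has2_TG, as was *Ccl21a*. The list summed to 3.25 to 32.8 FPKM in Has2_WT and 8.41 to 21.9 FPKM in Has2_TG. Of the 4 lymphatic markers tested, *Pdpn* (3.91 ± 2.14 FPKM in Has2_WT and 12.2 ± 5.93 FPKM in Has2_TG, log2 difference 1.64, adjusted p = 0.189) and *Sema3d* (0.298 ± 0.164 and 0.754 ± 0.161 FPKM, log2 difference 1.18, adjusted p = 0.390) rose, and the median log2 difference of the 4 was 0.72.

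**Figure D2:**
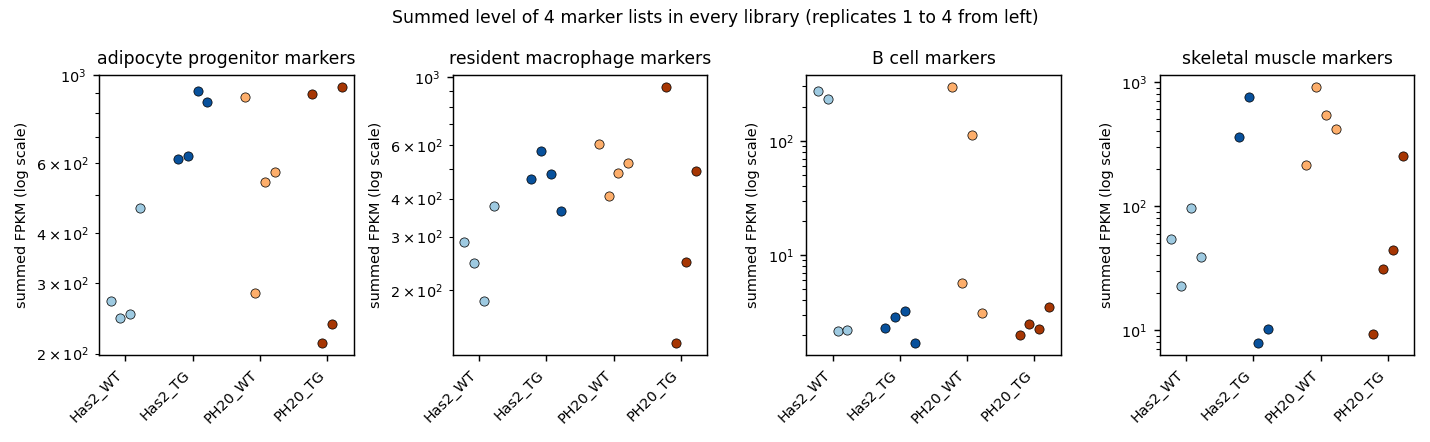
Summed FPKM of 4 marker lists (vertical axis, log scale) in every library, by group (horizontal axis). The progenitor sums of Has2_TG (613 to 910 FPKM) all lie above those of Has2_WT (246 to 464 FPKM), and those of the library labelled PH20_TG1 and of PH20_TG4 (895 and 930 FPKM) lie above those of PH20_TG2 and PH20_TG3 (213 and 237 FPKM).

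Genes of the HA pathway around the 10 genes were grouped by role. Of 8 tested genes of HA synthesis, 4 rose in Has2_TG and none fell, among them *Has2* itself (log2 difference 1.98 ± 0.30, SE, adjusted p = 0.0540), *Gfpt2*, an enzyme of the hexosamine pathway that feeds HA synthesis (2.0 ± 0.31, adjusted p = 0.0540), and *Ugdh*, which makes UDP-glucuronic acid (0.91 ± 0.20, adjusted p = 0.105). Of 6 tested genes of HA degradation, *Hexa*, a lysosomal hexosaminidase subunit, rose (0.37 ± 0.16, adjusted p = 0.499). Among 12 tested partners of CD44, the matrix metalloproteases *Mmp9* (0.98 ± 0.27, adjusted p = 0.195) and *Mmp14* (1.18 ± 0.33, adjusted p = 0.213) rose. Among 13 tested genes of TLR4 signalling, the inhibitor *Irak3* (0.97 ± 0.20, adjusted p = 0.0870) and the co-receptor *Cd14* (1.10 ± 0.33, adjusted p = 0.262) rose. None of the 7 other HA-binding genes tested, the 5 versican-cleaving proteases and the 4 spindle partners of RHAMM was called. No p of these genes passed 0.05 after adjustment in limma. The call of *Hexa* ended in 6 of 8 fits that left out 1 library (without Has2_WT1, Has2_WT2, Has2_WT3, Has2_TG1, Has2_TG2 or Has2_TG4, with log2 differences from 0.24 to 0.38) and in 8 of 12 other alternatives. With the progenitor level as a covariate none of the 8 named genes was called, with log2 differences of 1.09 for *Has2*, 0.52 for *Gfpt2*, 0.42 for *Ugdh*, 0.35 for *Hexa*, 0.68 for *Mmp9*, -0.36 for *Mmp14*, 0.87 for *Irak3* and 0.54 for *Cd14*. With the macrophage level *Hexa*, *Mmp9* and *Mmp14* were not called and the other 5 were.

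**Figure D3:**
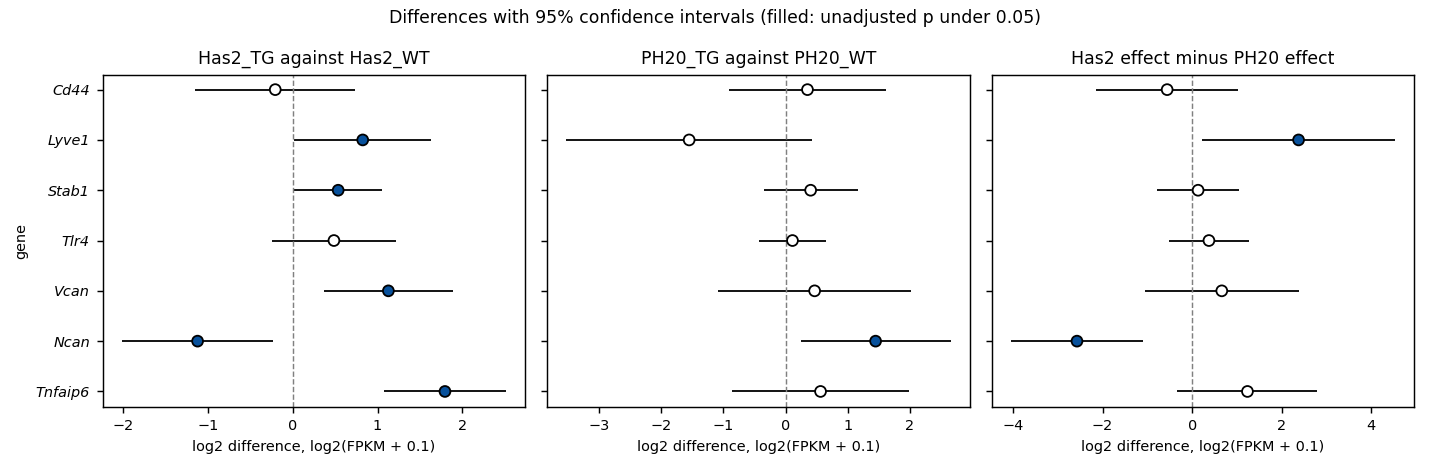
Log2 differences (horizontal axis, on the log2(FPKM + 0.1) scale) with 95% confidence intervals for the 7 tested genes (vertical axis) in Has2_TG against Has2_WT, in PH20_TG against PH20_WT and for the Has2 effect minus the PH20 effect, with filled points for called genes. *Ncan* is at -1.13 in the first panel, at 1.45 in the second and at -2.57 in the third.

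The second comparison addressed the opposite case, in which adipocytes made a hyaluronidase. Of the 7 tested genes, *Ncan* rose in PH20_TG, against 3.20% of all 12532 genes tested, and none fell, against 3.39%. No tested gene had groups apart, whereas 2.21% of all genes did upward and 2.33% downward. At an adjusted p under 0.05, 0 of the 7 and 0% of all genes passed in limma. The median log2 difference of the 7 genes was 0.40, beside 0.01 over all genes. Without the library labelled PH20_TG1, *Ncan* was called higher, against 4.47% of 12510 genes, and *Lyve1* lower, against 4.88%, and the median of the 7 genes was -0.005. Over all genes, 401 were called higher and 425 lower, and with voom on the recovered reads 225 and 587.

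*Ncan* was at 0.334, 0.645, 0.578 and 0.238 FPKM in PH20_WT1 to PH20_WT4. In the libraries labelled PH20_TG1 to PH20_TG4 it was at 0.608, 3.52, 1.67 and 0.800 FPKM. PH20_TG2 and PH20_TG3 were far above the controls and the one labelled PH20_TG1 was within their range. It differed by a log2 value of 1.45 ± 0.53 (SE), or 2.73-fold with a 95% interval of 1.18 to 6.29 (limma, adjusted p = 0.703), and without the library labelled PH20_TG1 it was 1.78 ± 0.51 (adjusted p = 0.516). The call was lost without PH20_TG2 (1.00), PH20_TG3 (1.34), PH20_WT1 (1.36) or PH20_WT4 (1.24). Skeletal muscle markers fell beside it, 8 of 9 of them, and summed to 214 to 906 FPKM in PH20_WT and to 9.34 to 254 FPKM in PH20_TG. With the muscle level as a covariate, the log2 difference of *Ncan* was 1.02 (adjusted p = 1.00) and was not called. Of the lymphocyte markers, 4 of 7 for B cells and 5 of 8 for T cells also fell. The call of *Ncan* was lost with the B cell level as a covariate (1.52, adjusted p = 0.856) and without the B cell-rich PH20_WT1 and PH20_WT3 (1.5, adjusted p = 1.00). B cell markers summed to 3.13 to 295 FPKM in PH20_WT and to 1.99 to 3.52 FPKM in PH20_TG. Muscle and B cell sums thus overlapped only slightly between the groups, and neither fit cleanly separates the level from genotype. The part of muscle and lymphocytes in the *Ncan* difference was not tested.

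*Lyve1* had the widest range of the 7 tested genes, 25.6-fold between the highest and the lowest of the 16 libraries. It was at 14.8, 9.10, 12.2 and 14.1 FPKM in PH20_WT1 to PH20_WT4 and at 18.7, 1.57, 0.862 and 10.8 FPKM in the libraries labelled PH20_TG1 to PH20_TG4. PH20_TG2 and PH20_TG3 held the lowest *Lyve1* of all 16 libraries, while the one labelled PH20_TG1 exceeded every PH20_WT library. The log2 difference was -1.55 with a 95% interval from -3.52 to 0.42 (limma, adjusted p = 0.740). Without the library labelled PH20_TG1 it was -2.27 ± 0.73 (adjusted p = 0.516) and was called. Resident macrophage markers summed to 925, 135, 247 and 492 FPKM in the libraries labelled PH20_TG1 to PH20_TG4, against 408 to 605 FPKM in PH20_WT, and the progenitor markers to 895, 213, 237 and 930 FPKM, against 284 to 881 FPKM. With the macrophage level as a covariate the difference of *Lyve1* was -0.68 (adjusted p = 0.685, not called), and with the progenitor level it was -1.02 (adjusted p = 0.416, called).

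*Vcan* and *Tnfaip6* split the PH20_TG libraries in a like manner. *Vcan* was at 2.40, 0.826, 1.41 and 1.38 FPKM in PH20_WT1 to PH20_WT4 and at 5.48, 0.674, 0.825 and 4.64 FPKM in the libraries labelled PH20_TG1 to PH20_TG4. *Tnfaip6* was at 2.71, 1.08, 1.04 and 3.49 FPKM in PH20_WT1 to PH20_WT4 and at 5.56, 0.794, 2.49 and 4.80 FPKM in the libraries labelled PH20_TG1 to PH20_TG4. Both genes were above all controls in the library labelled PH20_TG1 and in PH20_TG4, the same libraries in which *Has2* and the progenitor markers were high. The log2 difference of *Vcan* was 0.47 with a 95% interval from -1.09 to 2.02 (limma, adjusted p = 0.888), and -0.005 without the library labelled PH20_TG1 (adjusted p = 0.999). That of *Tnfaip6* was 0.56 with a 95% interval from -0.86 to 1.98 (limma, adjusted p = 0.855), and 0.23 without that library (adjusted p = 0.905). With the macrophage level as a covariate *Vcan* was at 1.17 (adjusted p = 0.478) and *Tnfaip6* at 1.14 (adjusted p = 0.495), and with the progenitor level *Vcan* was at 0.89 (adjusted p = 0.354), all of them called.

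Among the other receptors, *Stab1* was at 10.3, 9.65, 10.4 and 8.29 FPKM in PH20_WT1 to PH20_WT4 and at 24.7, 7.0, 10.7 and 14.3 FPKM in the libraries labelled PH20_TG1 to PH20_TG4. *Cd44* was at 5.23, 1.81, 3.61 and 3.29 FPKM in PH20_WT1 to PH20_WT4 and at 13.3, 2.49, 2.21 and 4.11 FPKM in the libraries labelled PH20_TG1 to PH20_TG4. For both, the library labelled PH20_TG1 held the highest value of the series. The other PH20_TG libraries lay within the control range of *Cd44* and on both sides of that of *Stab1*. The log2 difference of *Stab1* was 0.40 (95% interval -0.35 to 1.16, limma, adjusted p = 0.810) and 0.09 without that library (adjusted p = 0.901). The log2 difference of *Cd44* was 0.35 (95% interval -0.91 to 1.61, limma, adjusted p = 0.898) and -0.20 without it (adjusted p = 0.848). With the macrophage level as a covariate, *Stab1* was at 0.75 (adjusted p = 0.313) and *Cd44* at 0.89 (adjusted p = 0.493), both called. *Tlr4* was at 2.02, 3.73, 2.92 and 2.33 FPKM in PH20_WT1 to PH20_WT4 and at 3.92, 2.28, 2.63 and 3.01 FPKM in the libraries labelled PH20_TG1 to PH20_TG4. Its groups covered nearly the same range, and the log2 difference was 0.11 (95% interval -0.43 to 0.65, limma, adjusted p = 0.933) and -0.03 without that library (adjusted p = 0.968).

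The 3 genes under the read minimum are given as reads. *Hmmr* (chromosome 11, 40701395 to 40733422, minus strand) had 29, 5, 24 and 11 reads in PH20_WT1 to PH20_WT4 and 122, 28, 22 and 20 reads in the libraries labelled PH20_TG1 to PH20_TG4. In FPKM every PH20_TG library lay above PH20_WT, but the lowest PH20_TG value, 0.243, was next to the highest PH20_WT value, 0.233. It differed by a log2 value of 1.00 (exact two-sided permutation test, p = 0.0286, the smallest that 4 libraries against 4 allow). In the same test p was 0.0571, 0.257, 0.0571 and 0.171 without PH20_WT1, PH20_WT2, PH20_WT3 and PH20_WT4 in turn. Without the library labelled PH20_TG1 the log2 difference was 0.50 (exact p = 0.171). Dividing cell markers summed to 17.3 FPKM in that library and to 3.92 to 12.0 FPKM in the other PH20 libraries, and none of the 7 tested was called. In the Has2 study *Hmmr* had 21, 12, 3 and 15 reads in Has2_WT1 to Has2_WT4 and 26, 4, 0 and 13 reads in Has2_TG1 to Has2_TG4, a log2 difference of -0.25 (exact p = 0.571).

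*Stab2* (chromosome 10, 86841198 to 87008025, minus strand) had 149, 118, 4 and 0 reads in Has2_WT1 to Has2_WT4 and 17, 0, 0 and 11 reads in Has2_TG1 to Has2_TG4. It had 92, 4, 21 and 0 reads in PH20_WT1 to PH20_WT4 and 70, 18, 9 and 4 reads in the libraries labelled PH20_TG1 to PH20_TG4. The control libraries with the most reads were also rich in markers of B cells and of lymph node stroma. The lymph node stroma markers summed to 98.3, 65.3, 85.6 and 38.1 FPKM in Has2_WT1, Has2_WT2, PH20_WT1 and PH20_WT3, against at most 11.1 FPKM elsewhere. The part of either cell type in the *Stab2* level was not tested. Neither study showed a difference of *Stab2*, nor a lack of one (log2 difference -1.21, exact p = 0.343 in Has2_TG, and 0.15, exact p = 0.800 in PH20_TG). Without the library labelled PH20_TG1 the PH20 value of *Stab2* was -0.29 (exact p = 0.771). *Hapln1* (chromosome 13, 89539796 to 89611652, plus strand) had 20 reads over the 8 libraries of the Has2 study and 30 over those of the PH20 study, with 9 libraries at 0. At this depth no difference of *Hapln1* was detectable (exact p = 1.00 in Has2_TG and 0.257 in PH20_TG, or 0.371 without the library labelled PH20_TG1).

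Around these genes in PH20_TG, none of the 8 tested genes of HA synthesis was called. *Hyal2*, a membrane-anchored hyaluronidase, rose (log2 difference 0.53 ± 0.19, SE, adjusted p = 0.702) as 1 of 6 tested genes of HA degradation. Of 5 tested versican-cleaving proteases, *Adamts15* (1.20 ± 0.26, adjusted p = 0.664) and *Adamts9* (0.51 ± 0.17, adjusted p = 0.697) rose. The levels of *Adamts15* were 0.938 to 1.5 FPKM in PH20_WT and 1.82 to 3.56 FPKM in PH20_TG, and its call held in each of the 8 fits that left out 1 library. *Dynll1*, a dynein light chain, rose (0.42 ± 0.18, adjusted p = 0.731) as 1 of 5 tested spindle partners of RHAMM. None of the 14 tested genes of TLR4 signalling, the 12 partners of CD44 and the 6 other HA-binding genes was called, and none of the values above passed 0.05 after adjustment in limma. Without the library labelled PH20_TG1, *Hyal2* (0.54), *Adamts15* (1.08) and *Adamts9* (0.51) were called and *Dynll1* (0.46) was not. The call of *Dynll1* was also lost without PH20_TG3, PH20_TG4, PH20_WT2 or PH20_WT3 (from 0.27 to 0.43), with the muscle level (0.51) and with voom (0.34). That of *Hyal2* was lost without PH20_TG3 (0.46) or PH20_WT3 (0.49). *Hyal2* and *Adamts9* were not called with the B cell level (0.19 and 0.31), with the muscle level (0.64 for each) or without PH20_WT1 and PH20_WT3 (0.25 and 0.33).

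The Has2 and PH20 effects were then compared directly by their difference in 1 fit of all 16 libraries. *Ncan* had opposite changes, and the Has2 effect minus the PH20 effect was -2.57 ± 0.69 (SE) on the log2 scale (limma, adjusted p = 0.567). It was called in each of the 16 fits that left out 1 library, with values from -2.91 to -2.12. For *Lyve1* the difference was 2.38 ± 1.01 (SE; limma, adjusted p = 0.613), 3.09 without the library labelled PH20_TG1 (adjusted p = 0.299) and 0.60 with the macrophage level as a covariate (adjusted p = 0.937, not called). The call of *Lyve1* was lost in 8 of the 16 fits that left out 1 library (without Has2_WT2, Has2_WT3, Has2_TG1, Has2_TG2, PH20_WT1, PH20_WT4, PH20_TG2 or PH20_TG3, from 1.66 to 2.31). It was also lost with the progenitor level (0.32, adjusted p = 0.983), with the muscle level (2.06) and without the 4 B cell-rich controls (2.20). In the fit of all libraries 1 of 7 genes was higher, against 4.03% of all 12593 genes tested, and 1 lower, against 3.68%, while 0% of all genes passed after adjustment. Over all genes 507 were called higher and 463 lower, and with voom 762 and 315. For the other 5 genes the effects were not shown to differ, among them *Tnfaip6* (1.23, 95% interval -0.33 to 2.80, adjusted p = 0.718) and *Stab1* (0.13, 95% interval -0.78 to 1.04). Of the surrounding genes, *Mmp9* (1.41), *Irak3* (1.16) and *Cd14* (1.19) had a higher Has2 effect, and *Irak1* (-0.41), *Adamts15* (-1.18) and *Adamts9* (-0.85) a lower one (adjusted p from 0.567 to 0.627). With 1 library left out, *Cd14* and *Irak1* were each called in 7 of 16 fits (from 0.84 to 1.55 and from -0.47 to -0.28), and *Mmp9*, *Irak3*, *Adamts15* and *Adamts9* in 16 of 16. Without the library labelled PH20_TG1, *Tnfaip6* was called higher as well (adjusted p = 0.464), and *Irak1* was not called.

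The baselines of both lines were compared last. Both control groups carried Apn-rtTA alone, yet *Ncan* was at 1.65 to 3.80 FPKM in Has2_WT and at 0.238 to 0.645 FPKM in PH20_WT, with no overlap. The log2 difference was 2.25 ± 0.49 (SE), or 4.75-fold with a 95% interval of 2.31 to 9.77 (limma, adjusted p = 0.303). *Tnfaip6* was apart in the other direction, at 0.429 to 0.796 FPKM in Has2_WT and 1.04 to 3.49 FPKM in PH20_WT (log2 difference -1.38 ± 0.52, SE, limma, adjusted p = 0.420). One of 7 genes was therefore higher in Has2_WT, against 5.61% of all 12593 genes tested, and 1 lower, against 4.66%. Groups apart upward were found for 3.14% of all genes and downward for 3.20%, and 0% passed after adjustment. Over all genes 706 were called higher and 587 lower, and with voom, which moved the median of all genes to -0.12, the numbers were 414 and 1092. Without the 4 B cell-rich controls *Ncan* was still called and *Tnfaip6* was not (-1.20, adjusted p = 0.809). The Has2_TG values of *Tnfaip6* (1.84 to 3.50 FPKM) thus overlapped those of PH20_WT, and those of *Ncan* (0.636 to 1.91 FPKM) ran from the top of PH20_WT into the range of Has2_WT. Skeletal muscle markers summed to 22.5 to 96.5 FPKM in Has2_WT and to 214 to 906 FPKM in PH20_WT. With their level as a covariate *Ncan* was called (1.85) and *Tnfaip6* was not. Resident macrophage markers summed to 185 to 379 FPKM in Has2_WT and 408 to 605 FPKM in PH20_WT. With the macrophage level as a covariate *Ncan* was called (1.76) and *Tnfaip6* was not. Neither sum overlapped between the controls, so these fits cannot separate the level of either list from the line. The part of muscle and macrophages in these differences was not tested. Schwann cell and nerve markers, 4 of 6 of them lower in Has2_WT, summed to 65.5 to 90.6 FPKM in Has2_WT and 126 to 194 FPKM in PH20_WT, where *Gfap* was at 0, and their part was not tested. Among 14 tested genes of TLR4 signalling, *Ly96*, the partner of TLR4 on the cell surface, was lower in Has2_WT (-1.43, adjusted p = 0.416), as were *Cd14* (-0.96, adjusted p = 0.422) and *Irak3* (-0.71, adjusted p = 0.422), and *Irak1* was higher (0.34, adjusted p = 0.421). *Ly96*, *Cd14* and *Irak1* were not called without the 4 B cell-rich controls, nor without Has2_WT1 alone. With 1 library left out, *Ly96* was called in 10 of the 11 fits that tested it. *Cd14* was called in 14 of 16 such fits and *Irak1* in 15 of 16.

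In the order of the group means, *Lyve1* ran from Has2_TG (18.4 ± 4.40 FPKM, SD, n = 4) through PH20_WT (12.6 ± 2.57 FPKM) and Has2_WT (11.3 ± 6.08 FPKM) to PH20_TG (7.98 ± 8.46 FPKM), and only its first step exceeded the larger SD of the neighbours. *Ncan* ran from Has2_WT (2.54 ± 1.07 FPKM) through PH20_TG (1.65 ± 1.33 FPKM) and Has2_TG (1.12 ± 0.568 FPKM) to PH20_WT (0.449 ± 0.194 FPKM), where only the last step did. *Tnfaip6* ran from PH20_TG (3.41 ± 2.18 FPKM) through Has2_TG (2.57 ± 0.841 FPKM) and PH20_WT (2.08 ± 1.22 FPKM) to Has2_WT (0.655 ± 0.175 FPKM), again with only the last step beyond the SD. *Vcan* ran from PH20_TG (2.90 ± 2.51 FPKM) through Has2_TG (2.38 ± 0.632 FPKM) and PH20_WT (1.5 ± 0.654 FPKM) to Has2_WT (1.07 ± 0.451 FPKM), with the step between Has2_TG and PH20_WT beyond it. For *Cd44*, *Stab1*, *Stab2*, *Tlr4*, *Hmmr* and *Hapln1* no neighbouring groups differed by more than the larger SD.

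Across the 16 libraries, which share the tissue and its cell mixture, the 10 genes fell into loose sets. *Stab1* and *Vcan* varied together (Pearson's r = 0.83 on the log2 scale), as did *Vcan* and *Tnfaip6* (r = 0.73). *Cd44* went with *Hmmr* (r = 0.81) and *Stab2* (r = 0.72), both near the detection limit. The library labelled PH20_TG1 held the highest *Cd44*, *Hmmr*, *Stab1*, *Vcan* and *Tnfaip6* of the series. It also stood far above its group for *Stab2*. The pairs were not recomputed without it. *Ncan* ran against most of the others, with the lowest values for *Tnfaip6* (r = -0.57) and *Lyve1* (r = -0.45). *Tlr4* stood apart, with its highest correlation to *Lyve1* (r = 0.52). The 16 libraries come from 4 groups, so these values describe the series and carry no test.

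**Figure D4:**
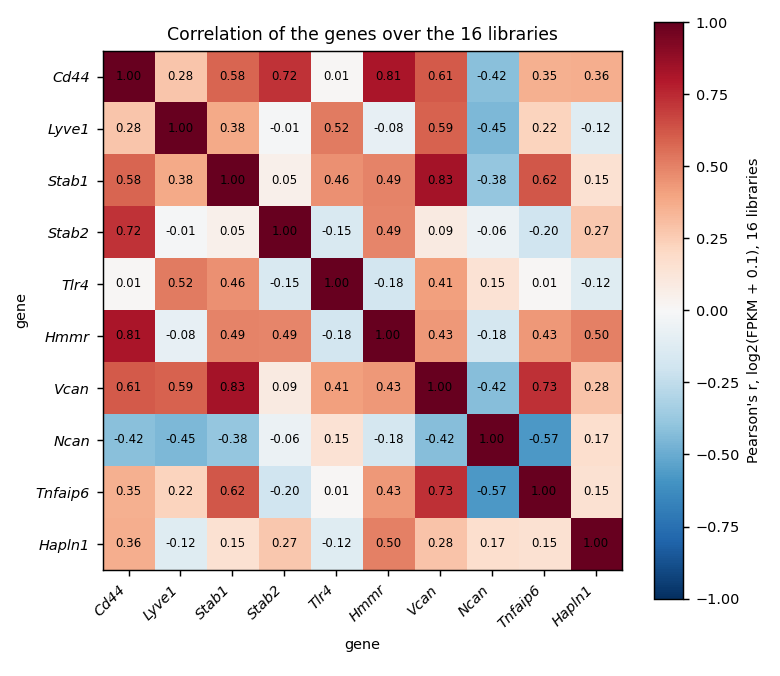
Pearson's r of log2(FPKM + 0.1) over the 16 libraries between each pair of the 10 genes (both axes), from blue (negative) to red (positive). *Stab1* with *Vcan* (0.83) and *Cd44* with *Hmmr* (0.81) are the highest pairs, and the row of *Ncan* is mostly negative.

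The genes most like each one were taken as the 3 with the highest r over the 16 libraries among 12593 genes. For *Vcan* these were *Nbl1* (0.952), *Fstl1* (0.950) and *Ndrg4* (0.950), and r stayed at or above 0.939 with any 1 library left out. For *Tnfaip6* they were *Katnbl1* (0.932), *Rian* (0.894) and *Cd63* (0.871), and for *Lyve1* they were *Fcna* (0.949), *mt-Tr* (0.938) and *Dpp4* (0.920). *Dpp4* is also 1 of the 9 progenitor markers, whose median r was 0.71 with *Lyve1*, 0.85 with *Vcan* and 0.69 with *Tnfaip6*. That of the 10 resident macrophage markers was 0.70 with *Lyve1*, 0.73 with *Vcan* and 0.54 with *Tnfaip6*. *Stab1* was closest to *Cmtm3* (0.913), *Vat1* (0.903) and the macrophage marker *Adgre1* (0.903). *Cd44* was closest to *Prkcd* (0.935), *Adam8* (0.915) and *Arhgap25* (0.913), and had a median r of 0.78 with 6 dividing cell markers. *Ncan* was closest to *Dag1* (0.904), *Klhdc7a* (0.900) and *Dhx32* (0.895), and *Tlr4* to *Ncoa6* (0.860), *Klhl13* (0.854) and *Cep170* (0.853). *Stab2* was closest to *Lat2* (0.913), *Evl* (0.876) and *Lrp8* (0.875). Its median r was 0.77 with 4 lymph node stroma markers, 0.74 with 7 B cell markers and 0.69 with 8 T cell markers. For *Hmmr* the best values (*Ulbp1* 0.847, *Atf3* 0.832, *Gusb* 0.823) dropped as low as 0.497 when 1 library was left out, and the sparse reads of *Hapln1* gave 0.761 at most, for *Reep4*. Spearman's rho was lower for some pairs, at 0.665 for *Stab1* with *Adgre1*, 0.682 for *Lyve1* with *Dpp4* and 0.662 for *Stab2* with *Lat2*. The named pairs were recomputed as rho and on deviations from group means. Of these values 43 moved by at least the SD of r over leaving out 1 library, and 17 did not.

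The plot of the settings shows how far the Has2_TG differences rested on choices of the fit.

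**Figure D5:**
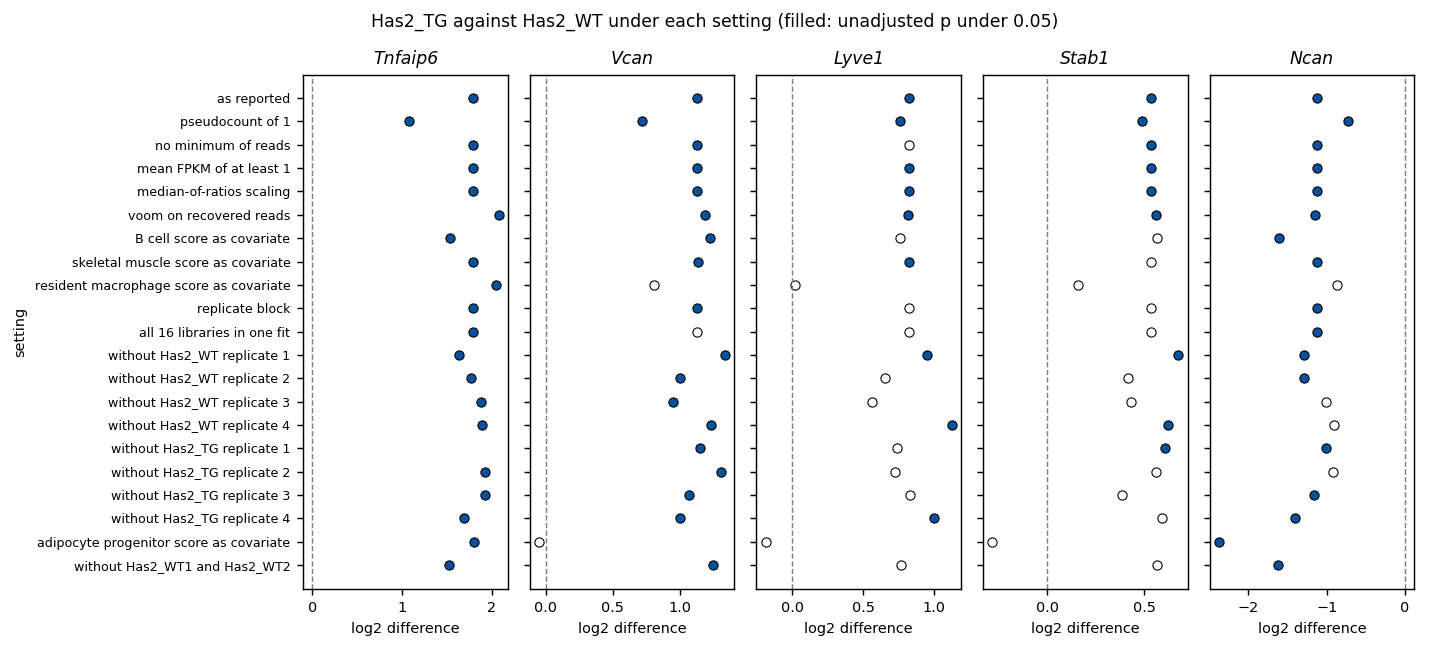
Log2 differences (horizontal axis) of the 5 genes called in Has2_TG against Has2_WT, each under the reported fit and every alternative (vertical axis), with filled points where the gene was called. *Tnfaip6* is filled wherever it has a point, whereas *Vcan*, *Lyve1* and *Stab1* fall to -0.05, -0.19 and -0.28 with the progenitor markers as a covariate.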

How the data were processed

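RNA from iWAT was sequenced after TRIzol extraction and TruSeq library preparation. Per the labels and the study's methods, the authors aligned reads with STAR 2.7.9a to GRCm38 and counted them per gene. The deposited values were FPKM, scaled by the authors to gene length and a library total, and 54532 genes were listed for 16 libraries. The totals implied by the FPKM were 0.886 to 1.14 times the reads recovered on genes. Strand use and the mapping of mice to libraries are not given in the sources used here. Whole reads were recovered from FPKM times gene length, with the smallest nonzero product of each library taken as a single read (tolerance 0.01 reads). They were used for the read minimum, for voom and for reads near 0. Counts near 0 carry a large counting error beside the spread between libraries.

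Tests covered genes whose average across the fitted libraries reached 50 reads and were run on log2(FPKM + 0.1) with limma 3.58.1 in R 4.3.3 (two-sided moderated test with a variance trend), first within each study of 8 libraries and then over all 16 for the difference of effects and for the control groups. Calls used the methods' unadjusted threshold of 0.05, and Benjamini-Hochberg adjusted p-values over all genes are given beside them. Differences are on the log2(FPKM + 0.1) scale, which understates changes of low genes. Genes under the minimum were compared by exact permutation of libraries (70 splits). Replicate numbers were not used as a block. The fits were tested on simulated data. Within groups, 24 pairs of libraries differed beyond sampling noise (chi-square per degree of freedom of at least 36.3), so none was counted as a duplicate.

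All 10 genes are named. From each pathway list up to 3 called genes of smallest p are named per comparison, and for each of the 10 genes the 3 most correlated ones. Marker genes are given as sums and examples. The 10 genes and all lists were chosen with earlier results of these data known. The alternatives were a pseudocount of 1, no read minimum, a mean FPKM of at least 1, median-of-ratios scaling, voom, the mean log2 level of B cell, muscle or macrophage markers as a covariate, a replicate block, 1 fit of all libraries and each library left out. A progenitor covariate and fits without the B cell-rich controls were added after seeing the data.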

Additional observations from a re-analysis of the deposited data

Results flagged for a closer look

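In the library labelled PH20_TG1, *Cd44* at 13.3 FPKM, *Hmmr* at 1.31 FPKM and *Stab2* at 0.466 FPKM each stood far above the other 3 libraries of the group by Dixon's criterion. This library had no *Spam1* reads. *Stab1* at 15.6 FPKM in Has2_TG3 stood above the rest of Has2_TG (9.86 to 10.8 FPKM), *Hmmr* at 0.0325 FPKM in Has2_WT3 stood below the rest of Has2_WT (0.127 to 0.145 FPKM), and *Irak1* at 32.5 FPKM in Has2_WT1 stood above the rest of Has2_WT (21.9 to 23.4 FPKM). *Hapln1* at 0.113 FPKM in Has2_TG4 and at 0.0687 FPKM in PH20_WT3 was the one value above 0 in its group. In all, 8 of 96 groups of values over 24 genes were picked out in this way. Chance picks out about 5% where values are normally distributed. That share does not apply to values such as those of *Hapln1*, where the rest of the group was at 0.

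The Has2 and PH20 effects differed at an unadjusted p under 0.05 in limma for 8 genes, none of which passed after adjustment (adjusted p from 0.567 to 0.627). On the log2 scale the Has2 effect minus the PH20 effect was -2.57 for *Ncan* and 2.38 for *Lyve1* among the 10 HA-binding genes. It was 1.41 for *Mmp9*, 1.16 for *Irak3*, 1.19 for *Cd14*, -0.41 for *Irak1*, -0.85 for *Adamts9* and -1.18 for *Adamts15* among the surrounding genes.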

How the results depend on the processing

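Of the log2 differences recomputed under the alternatives, 956 kept direction and call, 134 lost the call, 14 gained it and 31 changed sign. The causes were not tested. Numbers in brackets count all genes called in the same fit and direction. In Has2_TG, 4 of the 7 genes tested were called higher (788 of 12606). The count was 2 with the B cell level as a covariate (711), 1 with the macrophage level (618) and 1 with the progenitor level (418). It was 1 in a fit of all 16 libraries (802), 2 without Has2_WT1 and Has2_WT2 (734), and 2 to 4 with 1 library left out (619 to 880). The 1 gene called lower (473) became 0 with the macrophage level (364) and ranged from 0 to 1 with 1 library left out (329 to 592). In PH20_TG, the 1 gene called higher (401 of 12532) became 0 with the B cell level (433) and 0 with the muscle level (194). The count was 5 with the macrophage level (620), 2 with the progenitor level (644), 0 without PH20_WT1 and PH20_WT3 (305), and 0 to 1 with 1 library left out (283 to 559). Lower calls went from 0 (425) to 1 with voom (587), in the fit of all libraries (292) and with the progenitor level (506). They went from 0 to 1 with 1 library left out (279 to 655). For the difference of effects, the 1 higher call (507 of 12593) became 0 with the muscle (463), macrophage (348) and progenitor (324) levels. It became 0 without the 4 B cell-rich controls (288), and 0 to 2 with 1 library left out (322 to 759). The 1 lower call (463) became 3 with the macrophage (342) and 3 with the progenitor level (316). Between the controls, the 1 lower call (587 of 12593) became 0 with voom (1092) and with the muscle (435), macrophage (497) and progenitor (475) levels. It became 0 without the 4 B cell-rich controls (357), and 0 to 1 with 1 library left out (399 to 697). The progenitor covariate and the fits without the B cell-rich controls were chosen after seeing the data.

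Signs turned as follows on the log2 scale. In Has2_TG, *Cd44* was 0.452 with the B cell level, 0.527 without Has2_WT1 and Has2_WT2, and -0.57 to 0.148 with 1 library left out. *Tlr4* was -0.08 with the macrophage and -0.824 with the progenitor level. With the progenitor level *Lyve1* was -0.186, *Stab1* -0.282, *Vcan* -0.051 and *Mmp14* -0.362. In PH20_TG, *Cd44* was -0.221 with the muscle level (-0.198 to 0.649 with 1 library left out), and *Tlr4* was -0.058 with the B cell level and -0.024 without PH20_WT1 and PH20_WT3 (-0.029 to 0.265 with 1 library left out). *Vcan* was -0.005 to 0.944 with 1 library left out. For the difference of effects, *Stab1* was -0.592 with the macrophage and -0.537 with the progenitor level (-0.153 to 0.449 with 1 library left out), *Tlr4* was -0.036 with the macrophage level, and *Vcan* was -0.632 and -1.035 with the macrophage and progenitor levels. Between the controls, *Cd44* was 0.305 and 0.203 (-0.602 to 0.116 with 1 library left out), *Lyve1* 0.638 and 0.582, and *Vcan* 0.226 and 0.269 with the macrophage and progenitor levels, and *Stab1* 0.083 with the macrophage level. Of the genes with few reads, with 1 library left out, *Stab2* ran from -0.294 to 0.65 in PH20_TG, *Hmmr* from -0.495 to 0.017 in Has2_TG and from 0.499 to 1.179 in PH20_TG, and *Hapln1* from -0.177 to 0.228 in Has2_TG.

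Libraries of the same replicate number did not deviate together in every pair. Correlations ran from -0.18 to 0.13 in the Has2 study, where no library correlated best with its own number. In the PH20 study they were 0.35 and 0.42 for replicates 1 and 2, which did, and -0.03 and -0.04 for replicates 3 and 4, which did not. With the replicate number as a block, 2 genes were called higher in Has2_TG, *Tnfaip6* and *Vcan*, and 2 in the difference of effects, *Lyve1* and *Tnfaip6*. At these depths *Hmmr*, *Stab2* and *Hapln1* gave too few reads for the fit across genes.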
